A study of Mus musculus with 12 samples.

Results

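The effect of lipopolysaccharide (LPS) in the presence of nicotinamide mononucleotide (NMN) was read from 6 RNA-seq libraries of BV-2 cells, an immortalised mouse microglial line, out of 12 in the series. The 3 LPS+NMN libraries came from cells given both LPS and NMN, and the 3 NMN libraries from cells given NMN alone, so that NMN was common to both groups. The other 6 libraries were 3 of LPS-treated and 3 of Control cells. Neither dose nor exposure time is given in the sources used here. The labels call the cell type macroglia. All 12 microglia and macrophage markers on the list used here were in some catalogue, 10 of them in all 12 libraries. For astrocyte markers 1 of 4 was in some catalogue and 0 in all 12 libraries, and for oligodendrocyte markers 3 of 4 and 2. The labels do not say whether replicates were separate cultures, and the p-values cover the scatter among libraries alone, which may be technical. In such bulk samples, fewer cells carrying a transcript and less of it per cell cannot be told apart.

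LPS is a component of the outer membrane of gram-negative bacteria. It is sensed by Toll-like receptor 4, which signals through MyD88 to NF-kB and MAP kinases for cytokine genes, and through TRIF to interferon regulatory factors for type I interferon and the antiviral genes that interferon induces. NMN is the product of the enzyme Nampt and is converted by Nmnat enzymes into NAD, the cofactor used by sirtuins and PARP enzymes. Activated macrophages and microglia also change which first exon, last exon and internal exons of a gene are used, which can alter the protein made or the stability of the messenger RNA.

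Each library is held as a catalogue of transcript events rather than of levels. An event is a first exon, a last exon, a skipped exon (or a cassette of several), a retained intron or an alternative exon end of a gene. A gene was counted as listed when it had any event, and a listed gene had at least 2. Across the 6 libraries 13569 genes were listed, 11157 of them (82.2%) in all 6, with 105119 distinct events, of which 27486 (26.1%) were in all 6. How deeply each library was sequenced is unknown, and an entry comes without a read count, so its counting error is unknown too. A gene or event in all 3 libraries of a group and in none of the other is called set apart here.

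Skipped exons set apart between the groups could be matched to annotated exons by the length of the exon and of both flanking introns, and a few are printed because the results below return to them. Of 255 skipped exons in set-apart events, 193 (75.7%) had such a match in GENCODE M21 on GRCm38, 114 of them coding. The sequences are from the GENCODE M21 transcripts, 5′ to 3′ on the strand of the gene, in lower case with the last 3 bases, which adjoin the 5′ splice site, in capitals. The first is the coding exon of Ifi206 at chr1:173471375-173471563, minus strand, 189 nt long, whose skipping was listed in all LPS+NMN and no NMN libraries. The second is the coding exon of Zfp326 at chr5:105886317-105886428, plus strand, 112 nt long, whose skipping on its own was listed in all NMN and no LPS+NMN libraries. The third is the 72-nt coding exon of Mapk14 at chr17:28728904-28728975, plus strand, which takes part in both Mapk14 cassettes listed in NMN only.
Ifi206: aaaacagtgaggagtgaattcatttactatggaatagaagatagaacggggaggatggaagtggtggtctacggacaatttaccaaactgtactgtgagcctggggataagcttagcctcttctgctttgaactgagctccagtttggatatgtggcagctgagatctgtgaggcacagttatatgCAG
Zfp326: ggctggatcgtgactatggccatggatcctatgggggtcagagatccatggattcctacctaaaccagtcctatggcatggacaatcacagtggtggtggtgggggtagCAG
Mapk14: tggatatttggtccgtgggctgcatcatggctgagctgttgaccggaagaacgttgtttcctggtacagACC

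The 72-nt exon of Mapk14 was skipped together with either of 2 exons of 80 nt that annotated transcripts use in place of each other. They lie at chr17:28737011-28737090 and chr17:28740680-28740759, plus strand, and share 39 of 80 bases (48.8%) when set side by side without gaps. Capitals mark the 41 positions at which they differ.
Mapk14 upstream exon: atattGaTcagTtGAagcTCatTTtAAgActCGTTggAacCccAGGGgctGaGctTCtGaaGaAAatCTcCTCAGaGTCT
Mapk14 downstream exon: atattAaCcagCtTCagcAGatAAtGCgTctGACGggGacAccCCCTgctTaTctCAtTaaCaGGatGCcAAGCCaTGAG

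In the size of the catalogues, LPS+NMN and NMN libraries overlapped in each of 14 measures. Genes listed numbered 12123, 12132 and 12196 in LPS+NMN libraries, against 12046, 12171 and 12235 in NMN libraries. Distinct events numbered 52563, 52826 and 53783 in LPS+NMN libraries, against 50784, 53313 and 54353 in NMN libraries. The NMN values spanned those of LPS+NMN on either side, and NMN replicate 1 had the fewest distinct events of the 12 libraries. Means were 4.37 ± 0.0386 events per listed gene in LPS+NMN and 4.35 ± 0.117 in NMN libraries (SD, n = 3 each). First exons averaged 20270.7 ± 225 in LPS+NMN and 20171.3 ± 492 in NMN. Splicing events, meaning all classes but first and last exons, averaged 17762.7 ± 387 in LPS+NMN and 17609 ± 1100 in NMN. The smallest p of the 14 two-sided exact permutation tests was 0.2, for the share of skipped exons whose length was a multiple of 3 (44.2% ± 0.452 in LPS+NMN and 45.2% ± 0.488 in NMN, n = 3 each), with an adjusted p of 1. With 3 libraries against 3 the smallest p possible is 0.1, so no such test could have passed 0.05.

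The overlap of catalogues did not separate the groups either. The share of events that 2 libraries had in common, of those in either, was 53.9% to 54.1% among LPS+NMN libraries, 54.2% to 54.4% among NMN libraries, and 53.8% to 54.5% between an LPS+NMN and an NMN library. Without NMN, the same share was 53.8% to 54.1% among LPS libraries, 54.1% to 54.7% among Control libraries, and 52.3% to 53.2% between an LPS and a Control library, below all pairs within those groups.

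Few genes were set apart. In all LPS+NMN and no NMN libraries there were 27 genes, 0.199% of the 13569 listed, and in all NMN and no LPS+NMN libraries 19 genes (0.14%). Without NMN the counts were 65 genes in all LPS and no Control libraries (0.476%) and 38 in all Control and no LPS libraries (0.278%). Of the 46 genes set apart with NMN present, 42 had exactly 2 events in each of the 3 libraries that defined them. Leaving out any 1 of the 6 libraries, which lowers the number of libraries required, gave 39 to 65 genes in LPS+NMN only and 38 to 49 in NMN only.

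**Figure D1:**
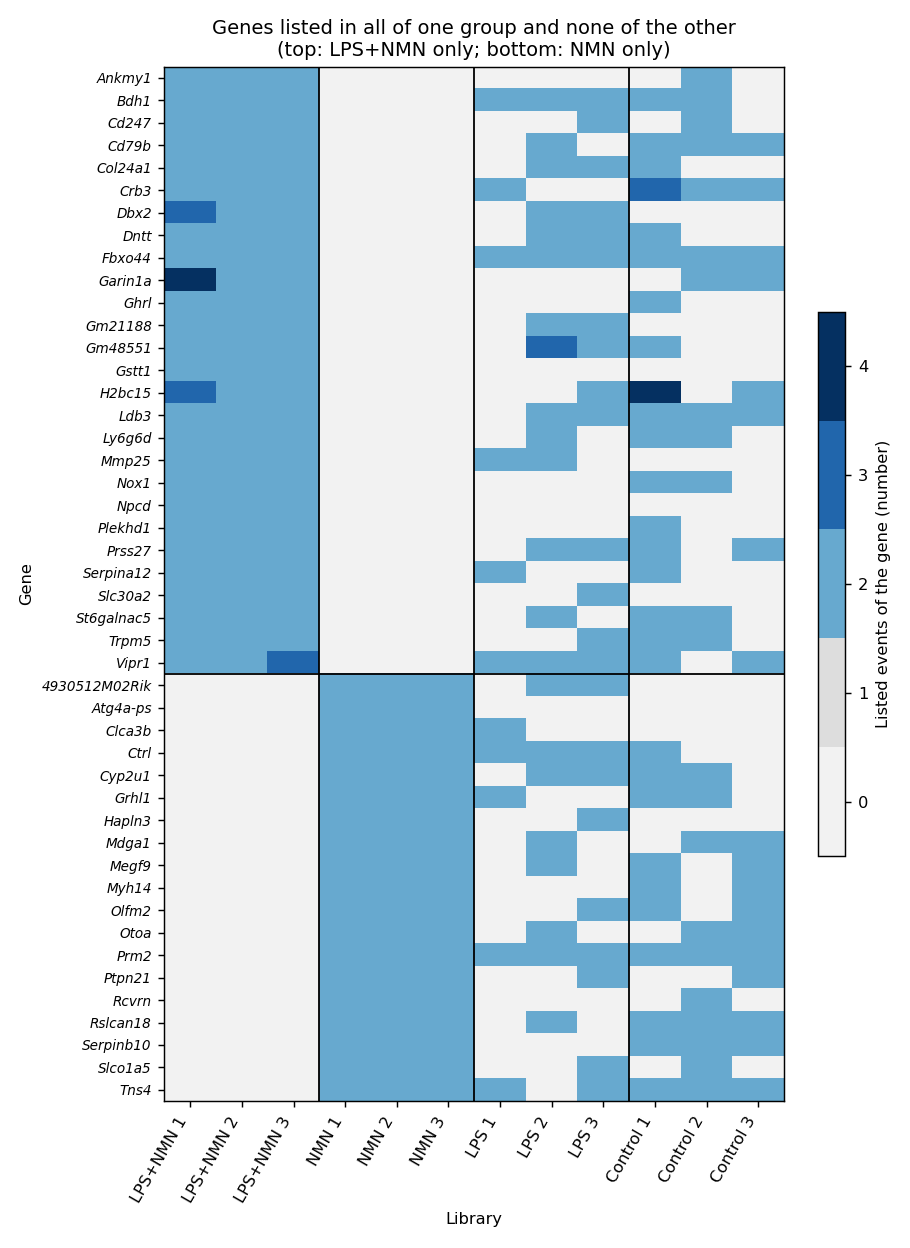
Listed events (colour, 0 to 4) of the 46 genes in all libraries of LPS+NMN and none of NMN (top, 27 genes) or the reverse (bottom, 19 genes), in the 12 libraries of LPS+NMN, NMN, LPS and Control. The LPS and Control columns to the right, which the choice did not use, hold a scatter of listings in both blocks.

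The genes in LPS+NMN only carried varied roles. Cd79b, a signalling chain of the B cell receptor, Cd247, a signalling chain of the T cell receptor, and Dntt, a DNA polymerase of lymphocyte precursors, had 2 events in each LPS+NMN library and none in NMN libraries. Cd79b was also in 1 LPS and 3 Control libraries, Cd247 in 1 LPS and 1 Control, and Dntt in 2 LPS and 1 Control. Of the T and B cell markers on the list, Cd3e, Cd3g and Cd8a were in no catalogue. The events of the 7 markers summed to 2, 4 and 2 in LPS+NMN libraries and to 2, 2 and 0 in NMN libraries. Without NMN the sums were 0, 4 and 0 in LPS libraries, against 4, 4 and 4 in Control libraries. The part of these markers in the listings was not tested. Fbxo44, a substrate-binding subunit of ubiquitin ligases, had 2 events in every LPS+NMN, LPS and Control library and was missing from NMN libraries alone. Gstt1, a glutathione transferase, and Npcd had 2 events in each LPS+NMN library and were in no other catalogue. Vipr1, a receptor of vasoactive intestinal peptide, had 2, 2 and 3 events in LPS+NMN libraries and was also in all 3 LPS and 2 Control libraries. Garin1a had 4, 2 and 2 events, Dbx2, a homeobox gene, 3, 2 and 2, and H2bc15, a histone gene, 3, 2 and 2 in LPS+NMN libraries, against 0 in NMN libraries. Bdh1, a ketone body dehydrogenase, Crb3, a polarity protein, Ankmy1 and Col24a1, a fibrillar collagen, had 2 events in each LPS+NMN library. Outside the pair, Bdh1 was in 3 LPS and 2 Control libraries, and Crb3 in 1 LPS and 3 Control. Ankmy1 was in 0 LPS and 1 Control libraries, and Col24a1 in 2 LPS and 1 Control. Garin1a was in 0 LPS and 2 Control libraries, Dbx2 in 2 LPS and 0 Control, and H2bc15 in 1 LPS and 2 Control.

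The genes in NMN only had 2 events in each NMN library. Serpinb10, a serine protease inhibitor of myeloid cells, was in all NMN and all Control libraries and in no LPS+NMN or LPS library. It was the 1 gene of the 46 set apart in the same direction by LPS with and without NMN. The last exon listed in all 3 Control libraries was in 0 NMN libraries, and the first exon listed there was in 1 NMN library. Each NMN library listed a different last exon of Serpinb10, so the gene recurred but its last exon did not. Prm2, a protamine of sperm chromatin, was missing from LPS+NMN libraries alone. Atg4a-ps, a pseudogene, was in NMN libraries alone. Cyp2u1, a fatty acid hydroxylase, Grhl1, an epithelial transcription factor, and Mdga1, a synaptic adhesion regulator, were each in some LPS and some Control libraries, and Myh14, a non-muscle myosin, was in 2 Control libraries and no LPS library. The remaining genes named by the rule were Clca3b, Ctrl, Hapln3, Megf9, Olfm2 and Otoa. They also had 2 events in each NMN library and 0 in LPS+NMN libraries. Of them, Ctrl was in 3 LPS and 1 Control libraries, and Clca3b and Hapln3 in 1 LPS and 0 Control. Megf9, Olfm2 and Otoa were each in 1 LPS and 2 Control libraries.

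The LPS and Control libraries shared no library with the other 6, so that each set could be read there. Of the 27 genes in LPS+NMN only, 9 were in more LPS than Control libraries, 12 in fewer and 6 in equal numbers. Of all 332 genes in exactly 3 of the 6 libraries, these counts were 110, 116 and 106. Of the 19 genes in NMN only, 4 were in more LPS than Control libraries, 10 in fewer and 5 in equal numbers.

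Read the other way round, genes that LPS brought into the catalogues without NMN were found more often in LPS+NMN than in NMN libraries. Of the 65 genes in all LPS and no Control libraries, 55, 52 and 53 were listed in the LPS+NMN libraries, against 46, 46 and 47 in the NMN libraries. The 3 values of LPS+NMN lay above the 3 of NMN. By gene, 25 of the 65 (38.5%) were in more LPS+NMN than NMN libraries, 7 (10.8%) in fewer and 33 in equal numbers, 24 of them in all 6. Over all 401 genes in exactly 3 of the 6 LPS and Control libraries, 138 (34.4%) were in more LPS+NMN than NMN libraries and 114 (28.4%) in fewer. Leaving out 1 of the 6 libraries at a time gave 24 to 29 of the 65 genes listed more often in LPS+NMN, and 8 to 11 more often in NMN. No test was made of these counts.

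Ccl20, a chemokine that attracts lymphocytes and dendritic cells, had 2, 0 and 2 events in LPS+NMN libraries and 0 in NMN libraries. Wnt10a, a secreted growth factor, had 2, 2 and 0 in LPS+NMN libraries and 0 in NMN libraries. Slfn1, an interferon-induced Schlafen gene, had 2, 2 and 2 in LPS+NMN libraries, against 2, 0 and 0 in NMN libraries. Gbp10, an interferon-induced GTPase, had 2, 2 and 2 in LPS+NMN libraries, against 0, 2 and 0 in NMN libraries. Each of these genes had 2 events in every LPS library and none in Control libraries, and all were chosen after their values were seen. The 38 genes in all Control and no LPS libraries overlapped, with 13, 17 and 13 listed in LPS+NMN libraries, against 14, 17 and 19 in NMN libraries.

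First and last exons were also found more often in LPS+NMN libraries, and splicing events were not. Of 255 first exons in all LPS and no Control libraries, 152, 152 and 164 were in the LPS+NMN libraries, against 135, 133 and 146 in the NMN libraries. Of 177 last exons so chosen, 105, 106 and 102 were in the LPS+NMN libraries, against 95, 86 and 95 in the NMN libraries. In both cases all 3 values of LPS+NMN were above those of NMN. Of the 255 first exons, 33.3% were in more LPS+NMN than NMN libraries and 17.6% in fewer. Over all first exons in exactly 3 of the 6 LPS and Control libraries, these shares were 31.8% and 29.1%. For last exons they were 35.6% and 19.8%, beside 30.7% and 31% over all last exons in exactly 3 of those 6. The counts were also read among genes listed in all 12 libraries, a restriction added after seeing the data, and there the groups overlapped. Of 189 such first exons, 106, 104 and 114 were in the LPS+NMN libraries, against 99, 90 and 105 in the NMN libraries. By exon, 61 (32.3%) were in more LPS+NMN than NMN libraries and 39 (20.6%) in fewer. Over first exons of those genes in exactly 3 of the 6 LPS and Control libraries, the shares were 32% and 29.6%. Of 108 such last exons, 54, 52 and 52 were in the LPS+NMN libraries, against 54, 43 and 54 in the NMN libraries. By exon, 36 (33.3%) were in more and 29 (26.9%) in fewer, beside 31.2% and 31.4% over last exons in exactly 3. Of all 480 events of those genes in all LPS and no Control libraries, 140 (29.2%) were in more LPS+NMN than NMN libraries. Those in fewer numbered 129 (26.9%). Over the events of those genes in exactly 3 of the 6 LPS and Control libraries, the shares were 31.3% and 31.2%. Without that restriction on genes, 201 splicing events were in all LPS and no Control libraries. Of these, 99, 108 and 94 were in the LPS+NMN libraries, against 95, 120 and 109 in the NMN libraries, and the groups overlapped. Of the 201 splicing events, 46 (22.9%) were in more LPS+NMN than NMN libraries and 62 (30.8%) in fewer. Over all 3439 splicing events in exactly 3 of the 6 LPS and Control libraries, these shares were 30.8% and 32%. These differences were not tested.

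**Figure D2:**
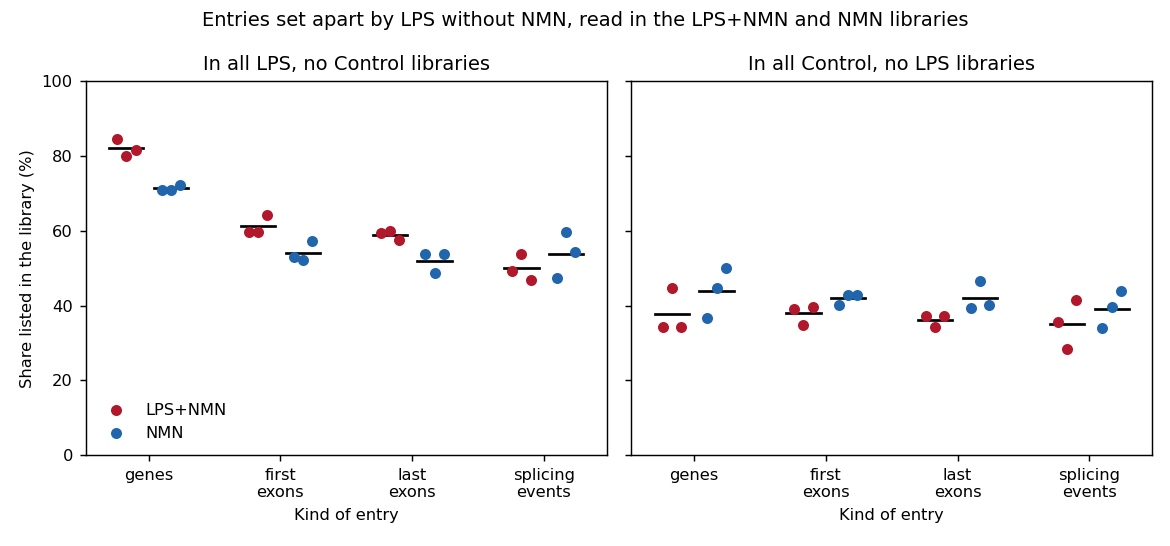
Share (%) of entries listed in each LPS+NMN (red) and NMN (blue) library, for genes, first exons, last exons and splicing events in all LPS and no Control libraries (left) or in all Control and no LPS libraries (right). Points are libraries and lines are means of 3; on the left the red points lie above the blue ones for genes, first exons and last exons, and overlap them for splicing events.

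At the level of single events, 337 were in all LPS+NMN and no NMN libraries (0.321% of 105119) and 387 in all NMN and no LPS+NMN libraries (0.368%). Without NMN, 633 events (0.597%) were in all LPS and no Control libraries and 650 (0.613%) in all Control and no LPS libraries. First exons numbered 112 in LPS+NMN only (0.294% of those listed) and 114 in NMN only (0.3%), and last exons 85 (0.312%) and 88 (0.323%). Skipped exons numbered 65 in LPS+NMN only (0.425%) and 93 in NMN only (0.607%), and skipped cassettes 14 (0.42%) and 25 (0.75%). Retained introns numbered 7 in LPS+NMN only (0.243%) and 8 in NMN only (0.277%), and alternative exon ends 54 (0.301%) and 59 (0.329%). All splicing events together numbered 140 in LPS+NMN only (0.351%) and 185 in NMN only (0.464%). First and last exons were thus set apart in near equal numbers in either direction, and skipped exons in larger number in NMN only. In the comparison without NMN, skipped exons also numbered fewer in LPS only, 92 (0.581%), than in Control only, 150 (0.947%), as did skipped cassettes with 15 (0.427%) and 25 (0.712%). Retained introns numbered 13 in LPS only (0.475%) and 26 in Control only (0.951%), and their groups 0 and 2 (0.621%). First exons numbered 255 in LPS only (0.665%) and 189 in Control only (0.493%), and last exons 177 (0.647%) and 137 (0.501%). These differences of counts were not tested. Leaving out any 1 of the 6 libraries raised the counts of first exons, last exons and splicing events by over 1.5 times, since an event then needed fewer libraries, to 233 to 420 first exons in LPS+NMN only and 222 to 401 in NMN only.

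**Figure D3:**
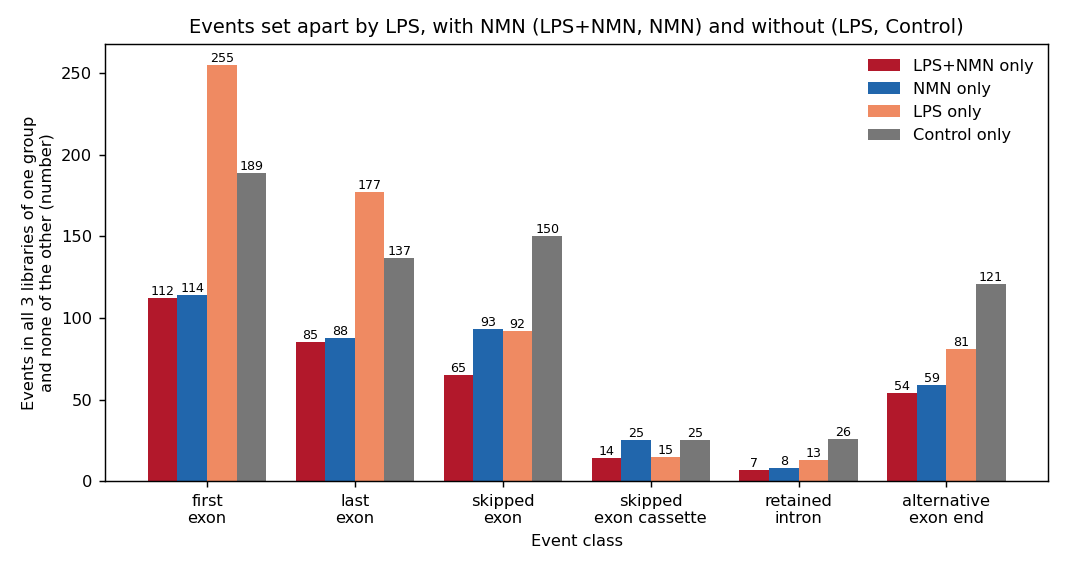
Number of events of 6 classes in all 3 libraries of a group and in none of the other, for LPS+NMN only, NMN only, LPS only and Control only. First exons reach 112 and 114 with NMN present, against 255 and 189 without NMN.

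Set-apart events rarely recurred. Of the 337 events in LPS+NMN only, 6 (1.78%) were also in all LPS and no Control libraries and 4 (1.19%) in all Control and no LPS libraries. Of the 387 in NMN only, 8 (2.07%) were also in all Control and no LPS libraries and 4 (1.03%) in all LPS and no Control libraries. Over all 7361 events in exactly 3 of the 6 libraries, 90 (1.22%) were in all LPS and no Control libraries and 118 (1.6%) in all Control and no LPS libraries. The 6 that recurred with LPS were first exons of Hectd2, Ipo11 and Zmynd8, last exons of Crhbp and Il36g, and a skipped exon of Sfswap. Those that recurred without LPS included first exons of Kifc3, Med13l, Mtmr4, Slc13a3 and Zfp771, and skipped exons of Ywhaq and Zfp326.

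Il36g, a cytokine of the interleukin-1 family that acts on epithelia and myeloid cells, had a different last exon set apart in each direction. The 109-nt last exon that starts at 24088860 on chromosome 2 was in all 3 LPS+NMN and all 3 LPS libraries and in no NMN or Control library. The 982-nt last exon that starts at 24082599 was in all 3 NMN libraries, in 1 Control library, and in no LPS+NMN or LPS library. The exon at 24082599 also stood downstream of a skipped exon in all LPS+NMN, NMN and LPS libraries, so that it was listed in all 3 groups and differed in being the last. Il36g as a whole had 5, 4 and 4 events in LPS+NMN libraries, against 4, 5 and 3 in NMN libraries. These event positions refer to an unnamed mouse assembly that is not GRCm38.

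Among splicing regulators and signalling genes, single exons were set apart in either direction. Sfswap, a regulator of splicing related to the Drosophila suppressor of white apricot, had a 153-nt skipped exon in all LPS+NMN and all LPS libraries and in no NMN or Control library. Ywhaq, a 14-3-3 adaptor protein, had an 83-nt skipped exon in all NMN and all Control libraries and in no LPS+NMN or LPS library. The 112-nt exon of Zfp326 printed above, from a zinc-finger protein that links transcription with splicing, was skipped on its own in the same libraries as that of Ywhaq, but its skipping together with the next exon was listed in all 12 libraries. Mapk14, the p38 alpha kinase activated by Toll-like receptors, had its 72-nt exon skipped with either of the 80-nt exons in all NMN and no LPS+NMN libraries. The same Mapk14 cassettes were in 2 LPS and 3 Control libraries, and were missing from all 3 LPS+NMN libraries.

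Single exons were also set apart in interferon-induced and other immune genes. The event totals of Ifi206 (5, 5 and 8 in LPS+NMN libraries, against 3, 2 and 4 in NMN libraries) and Slfn8 (9, 8 and 6 in LPS+NMN libraries, against 4, 5 and 5 in NMN libraries) did not overlap, each with a limma adjusted p of 0.938, and those of Gbp3, Irf5, Irak4 and Tnfsf9 overlapped. Skipping of the 189-nt exon of Ifi206, a DNA sensor of the Ifi200 family, was in 3 LPS+NMN, 0 NMN, 1 LPS and 0 Control libraries. Skipping of a 138-nt exon of Gbp3, a guanylate-binding protein of host defence, was in 3 LPS+NMN, 0 NMN, 2 LPS and 0 Control libraries. A first exon of Slfn8 was in 3 LPS+NMN libraries and no other, and a first exon of Irf5, a transcription factor of inflammatory cytokines, in 3 NMN, 0 LPS+NMN, 1 LPS and 0 Control libraries. A last exon of Irak4, the kinase that MyD88 recruits, was in 3 NMN libraries and no other. A last exon of Tnfsf9, a ligand that costimulates T cells, was in 3 LPS+NMN, 0 NMN, 2 LPS and 2 Control libraries. Gbp3, Gbp10, Ifi206 and Slfn8 have close relatives in the genome with which reads may have been shared. Of 112 named genes with a position in GENCODE M21, at most 29 overlap another protein-coding gene, among them Aim2, Irak4, Irf5, Cox4i1 and Flt3l. The 29 include Il36g, Il36a and Brme1, whose only overlapping entry is the same gene under a former symbol. Reads of overlapping genes may not have been told apart.

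In metabolism, the ferroptosis list held a first exon of Prdx6, a peroxiredoxin that repairs oxidised phospholipids, in 3 LPS+NMN, 0 NMN, 2 LPS and 0 Control libraries. An alternative exon end of Coq2, an enzyme of ubiquinone synthesis, was in 3 LPS+NMN, 0 NMN, 0 LPS and 1 Control libraries. An alternative exon end of Ftl1, the ferritin light chain, was in 3 NMN, 0 LPS+NMN, 1 LPS and 1 Control libraries. A 142-nt skipped exon of Cox4i1, a subunit of cytochrome c oxidase, was in 3 LPS+NMN, 0 NMN, 1 LPS and 3 Control libraries. A last exon of Parp9, which pairs with an E3 ligase in interferon signalling, was in 3 NMN, 0 LPS+NMN, 3 LPS and 2 Control libraries. Of the 3395 events of genes on any list, 14 (0.412%) were in LPS+NMN only and 17 (0.501%) in NMN only, beside 0.321% and 0.368% of the events of all genes.

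Several events were set apart together in a few genes, most of them overlapping descriptions of the same exon. Flt3l, the ligand of the Flt3 receptor of dendritic cell precursors (chromosome 7, 45129788 to 45136432, minus strand, GRCm38), had 5 in LPS+NMN only. Of these, 3 described its 69-nt exon, skipped alone or with a 74-nt neighbour, and 2 were alternative ends of 1 exon. Gipr, the receptor of the gut hormone GIP (chromosome 7, 19156061 to 19166127, minus strand, GRCm38), had 4 in LPS+NMN only, among them the retention of introns of 126 and 1794 nt. Fbxo34, Nop58 and Sh3tc1 also had 4, and Ankrd9, Brme1 and Cse1l had 3. Luc7l2, a splicing factor that contacts the U1 particle, had 6 in NMN only, including retention of a 504-nt intron listed in no LPS or Control library. Cep55, a protein of cell abscission, had 5, and Aim2, B3galnt2, Brd1, Hdac5, Il15ra and Oas1c had 3. Events lay in both directions within 34 genes, among them Nop58, Zfp771, Cse1l, Rtn2, Fntb and Herc4.

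In the number of events per gene, no gene passed. Limma was fitted to log2(events + 1) of 11671 genes over the 4 groups. At a Benjamini-Hochberg adjusted p under 0.05, 0 genes (0%) had more events in LPS+NMN than in NMN and 0 (0%) had fewer. At an unadjusted p under 0.05 there were 531 genes (4.55%), 249 with more and 282 with fewer events. When its trend and robust options were switched off, limma called 3 gains (Fbxo44, Gstt1 and Npcd) and 3 losses (Atg4a-ps, Prm2 and Serpinb10), all of them genes listed in a single group of the pair. The smallest limma adjusted p was 0.068, for Fbxo44 and Prm2. In LPS against Control, 30 genes gained events (0.257%) and 5 lost them (0.0428%) in the same model, and 872 (7.47%) had an unadjusted p under 0.05.

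Of the 10053 tested genes listed in all 6 libraries, 101 (1%) had more events in LPS+NMN and 127 (1.26%) fewer, counting those with groups that did not overlap and an unadjusted limma p under 0.05. Flt3l had 28, 16 and 13 events in LPS+NMN libraries, against 8, 8 and 6 in NMN libraries, and differed by 1.20 ± 0.29 on the log2 scale (SE, with a limma adjusted p of 0.618). LPS and Control libraries each had 10, 10 and 6, so that LPS+NMN stood above all other groups. Gipr had 14, 14 and 15 in LPS+NMN libraries, against 4, 4 and 10 in NMN libraries, and differed by 1.24 ± 0.32 on the log2 scale (SE, with a limma adjusted p of 0.646). LPS libraries had 8, 4 and 10 events of Gipr and Control libraries 2 each. Ceacam16, Hirip3, Alg6, Napg, Msh3, Fam53c and Cog4 were among the others with the largest gains, at log2 differences of 1.05 to 1.41.

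Of the genes with fewer events, Tfb2m, a transcription factor of mitochondrial DNA, had 6, 4 and 7 events in LPS+NMN libraries, against 13, 13 and 12 in NMN libraries (log2 difference -1.06 ± 0.26, SE, limma adjusted p = 0.618). LPS libraries had 4, 3 and 7 and Control libraries 8, 6 and 6, so that NMN stood above all other groups. Tubgcp3, a subunit of the gamma-tubulin ring complex, had 2, 3 and 3 in LPS+NMN libraries, against 6, 7 and 6 in NMN libraries (-1.01 ± 0.21, SE, limma adjusted p = 0.618). Hdac5, a class IIa histone deacetylase, had 4, 7 and 3 in LPS+NMN libraries, against 9, 8 and 13 in NMN libraries. Nlrc3, a NOD-like receptor that dampens Toll-like receptor signalling, had 4, 2 and 2 in LPS+NMN libraries, against 7, 5 and 7 in NMN libraries. Without NMN the direction for Nlrc3 was the opposite, with 6, 10 and 13 in LPS libraries, against 5, 3 and 5 in Control libraries. Zfp28, Dhx37, Alg8, Trmt5, Fcho2 and Rbm4b completed the 10 with the largest losses, at log2 differences from -1.18 to -0.99 over all 10. Luc7l2 had 9, 25 and 19 in LPS+NMN libraries, against 35, 31 and 34 in NMN libraries, and Aim2, which triggers the inflammasome on cytosolic DNA, 9, 10 and 5 in LPS+NMN libraries, against 16, 15 and 16 in NMN libraries. Both groups were apart for Luc7l2 and Aim2, with limma adjusted p of 0.938 and 0.843.

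**Figure D4:**
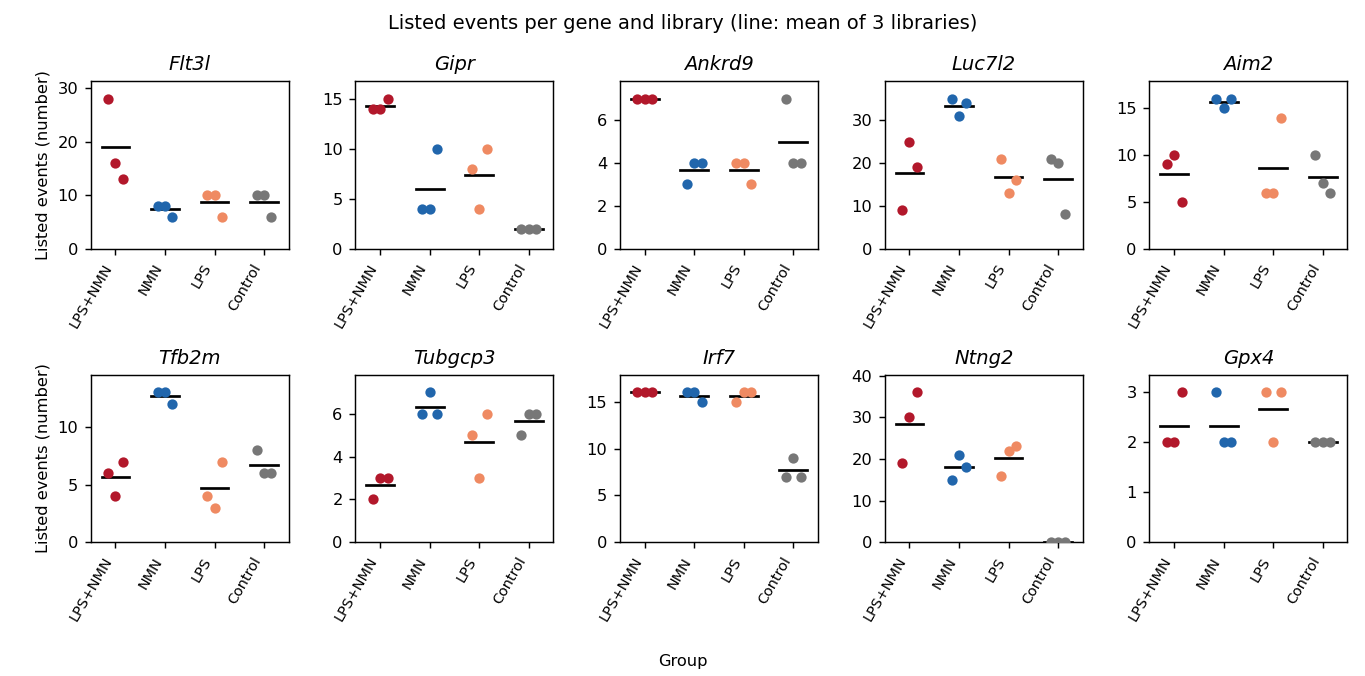
Listed events of 10 genes in the libraries of LPS+NMN, NMN, LPS and Control (points, with the mean of 3 libraries as a line). By mean, Flt3l, Gipr and Ankrd9 were highest in LPS+NMN, Luc7l2, Aim2, Tfb2m and Tubgcp3 in NMN, and Irf7 had 15 or 16 in all groups but Control.

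Toll-like receptor and interferon genes held both directions. The type I interferon list had 51 tested members, of which 0 were called, 22 had a higher mean in LPS+NMN, 17 a lower and 12 an equal one, and the median log2 difference was 0, as over all genes tested (4804 higher, 4737 lower, 2130 equal, median 0). In LPS against Control the same list had 37 higher and 9 lower means, 6 calls and a median of 0.333. The events of the list summed to 242, 251 and 262 in LPS+NMN libraries, 232, 251 and 265 in NMN libraries, 276, 256 and 257 in LPS libraries, and 192, 193 and 166 in Control libraries. The sums of NMN libraries overlapped those of both LPS-treated groups and lay above those of Control libraries. Irf7, the regulator that amplifies type I interferon, had 16 events in each LPS+NMN library and 16, 16 and 15 in NMN libraries, against 7, 9 and 7 in Control. Ifit3b had 3, 2 and 2 in LPS+NMN libraries and 2, 3 and 2 in NMN libraries, and Zbp1 2 in each of the 6.

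Within the list, Slfn4 had 13, 12 and 14 events in LPS+NMN libraries, against 5, 7 and 12 in NMN libraries, and Oasl2, an antiviral synthetase-like protein, 5, 4 and 5 in LPS+NMN libraries, against 10, 7 and 7 in NMN libraries. The groups touched for Slfn4 and were apart for Oasl2, in opposite directions, and neither passed (limma adjusted p = 0.938 and 0.676). The TLR4 list had 30 tested members, with 16 means higher, 12 lower and a median of 0.08. Irak2, a kinase that sustains NF-kB signalling, had 9, 11 and 10 in LPS+NMN libraries, against 5, 7 and 7 in NMN libraries (limma adjusted p = 0.736). Map2k6, a kinase upstream of p38, had 2, 3 and 3 in LPS+NMN libraries, against 5 in each NMN library, and Ikbke, a kinase of interferon regulatory factors, 4, 2 and 4 in LPS+NMN libraries, against 7, 5 and 10 in NMN libraries. List members named here beyond those set apart were picked after their values were seen.

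**Figure D5:**
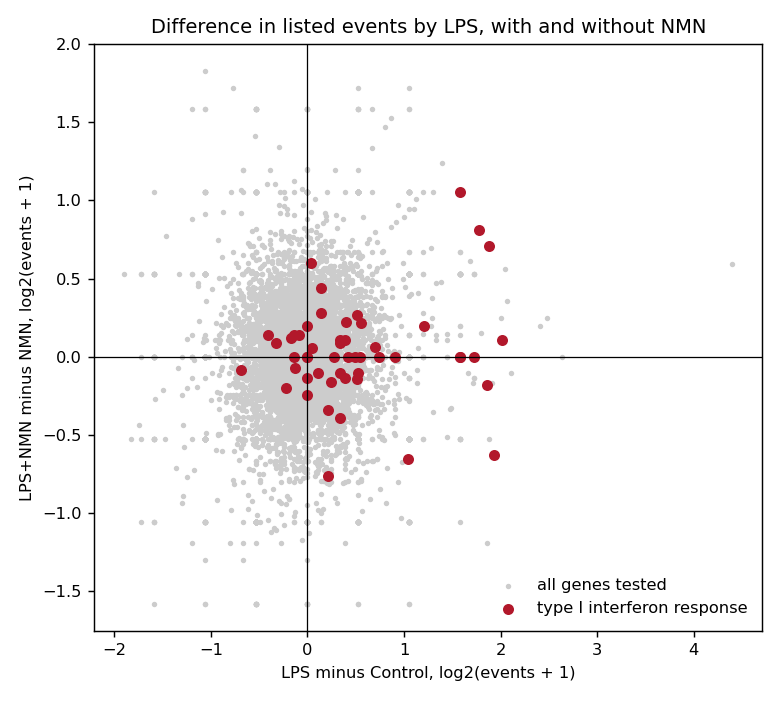
Difference in log2(events + 1), LPS+NMN minus NMN (vertical) against LPS minus Control (horizontal), for 11671 tested genes (grey) and 51 members of the type I interferon list (red). The red points spread to the right of 0, with 37 of 51 higher in LPS than in Control, and lie on either side of the horizontal line.

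Of 27 tested cytokines and chemokines, 13 had a higher mean, 7 a lower and 7 an equal one in LPS+NMN, against 24 higher and 1 lower in LPS against Control, with medians of 0 and 0.269. Il6 had 3 events in each of the 6 libraries and Il12b 2 in each. Tnf had 3, 2 and 2 in LPS+NMN libraries and 2 in each NMN library, Il1b 2, 2 and 4 in LPS+NMN libraries and 2 in each NMN library, and Nos2 2, 2 and 3 in both groups. Of 14 tested inflammasome genes 4 had a higher and 8 a lower mean (median -0.10), and their events summed to 64, 70 and 68 in LPS+NMN libraries, against 83, 81 and 73 in NMN libraries. Without Aim2 the sums were 55, 60 and 63 in LPS+NMN libraries, against 67, 66 and 57 in NMN libraries, and the groups overlapped. Ripk3, a kinase of necroptosis, had 2 in each LPS+NMN library, against 4, 4 and 3 in NMN libraries.

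The ferroptosis defence list, with 21 tested members, had 9 higher and 8 lower means and a median of 0. Gpx4, the lipid peroxidase of ferroptosis defence, had 2, 2 and 3 events in LPS+NMN libraries, against 3, 2 and 2 in NMN libraries. Slc7a11, the cystine importer, had 4, 4 and 2 in LPS+NMN libraries, against 5, 3 and 2 in NMN libraries, and Acsl4, which builds oxidisable phospholipids, 8, 9 and 6 in LPS+NMN libraries, against 9, 7 and 8 in NMN libraries. Aifm2, a ubiquinone reductase, had 4, 3 and 3 in LPS+NMN libraries, against 5, 5 and 6 in NMN libraries (limma adjusted p = 0.938). Of 16 tested NAD synthesis genes 4 had a higher and 8 a lower mean. Nampt had 6, 7 and 6 in LPS+NMN libraries, against 7, 8 and 7 in NMN libraries, and Nadk2, the mitochondrial NAD kinase, 5, 5 and 7 in LPS+NMN libraries, against 3, 4 and 3 in NMN libraries (limma adjusted p = 0.748). Among 45 splicing factors 19 were higher and 23 lower, with a median of -0.01.

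The LPS effect with NMN was also tested against that without NMN, as the interaction in the same limma model. Of 11671 genes, 5 (0.0428%) had a smaller LPS effect with NMN and 0 (0%) a larger one, and 671 (5.75%) had an unadjusted p under 0.05. Ntng2, a membrane protein of axon guidance, had 19, 30 and 36 events in LPS+NMN libraries, against 15, 21 and 18 in NMN libraries, and 16, 22 and 23 in LPS, against 0 in Control libraries. Apol9b had 6, 6 and 5 in LPS+NMN libraries, against 4, 6 and 4 in NMN libraries, and 6, 4 and 4 in LPS libraries. H2-M2, a class I histocompatibility gene, had 3, 3 and 3 in LPS+NMN libraries, against 4, 3 and 3 in NMN libraries. Il36a, another interleukin-1 family cytokine, had 4, 4 and 5 in LPS+NMN libraries, against 4, 4 and 3 in NMN libraries, and Urah, an enzyme of uric acid breakdown, 4, 3 and 3 in LPS+NMN libraries, against 2, 3 and 3 in NMN libraries. All 5 genes were listed in every library of the other 3 groups and at 0 in Control, so that the LPS effect with NMN was measured from libraries that listed the genes and that without NMN from libraries that did not. The size of each such difference depends on the pseudocount. The call of Urah passed in 8 of 20 alternatives, and was lost without any 1 LPS+NMN or LPS library and without NMN replicate 2 or 3. With splicing events alone 0 genes passed, and with at least 5 events in 3 libraries 1 did.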

How the data were processed

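RNA-seq libraries of BV-2 cells in 4 groups of 3 were analysed. For each, the authors deposited a catalogue of transcript events, whose other columns (event start and end) are positions per the file headers, with no read count, level or depth. Per the submitters' processing notes, BWA 0.7.12, MACS2 2.1.0, HOMER and GRCm38 were used, with no role stated. The sources used here do not name the program behind the event lists, which is therefore not given. Positions are not on GRCm38, since 6 of 193 structure-matched exons lay at the same position there, and were not converted. Groups and replicate numbers came from the sample titles.

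Partner lines (128404) and repeated lines (9998) were left out. First and last exons were matched by gene and pattern, other events by gene, start and end; exact and approximate forms were counted separately. Events per gene were tested as log2(events + 1) with limma 3.58.1 in R 4.3.3 (trend, robust, 4 group means, 8 residual degrees of freedom), after a filter of at least 1 event in 3 libraries. Of 14275 genes, 1500 fell below it, 1104 were constant and 11671 were tested, with Benjamini-Hochberg adjustment at 0.05. Totals were compared by two-sided exact permutation tests. The procedure was also run on simulated data with large changes put in. The outcome is not given here, and such a run does not show whether smaller changes would be found.

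Genes were named by rule: set-apart genes, up to 12 in each direction by mean events; the 10 largest differences in each direction among genes in all 6 libraries with groups apart and unadjusted p under 0.05; genes with most set-apart events, up to 8 in each direction and 6 in both; up to 4 set-apart events per class and direction, those of list genes first, then those that differed the same way between LPS and Control; 12 anchor genes; genes past the interaction threshold; and up to 4 members per list. Predicted names were left out of the first 2 parts. Members, lists and rules were chosen with earlier results of these data known. Of the 14275 gene names, 13939 are in GENCODE M21. Of 21 lists with 457 genes, 430 genes were in some catalogue; the lists and the alternatives tried are described with their results. A few genes that the rule or a list would name are not reported here.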

Additional observations from a re-analysis of the deposited data

Results flagged for a closer look

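In 5 genes the LPS effect with NMN differed from that without NMN by limma's interaction term. The difference in log2(events + 1), effect with NMN minus effect without, was -3.81 for Ntng2, -2.23 for Apol9b, -2.21 for H2-M2, -2.21 for Il36a and -1.75 for Urah. Each gene was listed in all 9 treated libraries and in no Control library. Urah, with a limma adjusted p of 0.0401, passed in 8 of the 20 alternatives run for it, and H2-M2 in 20 of 20.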

How the results depend on the processing

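No gene passed in LPS+NMN against NMN under any alternative run, with 1 exception: with its trend and robust options off, limma called 3 gains and 3 losses, and 10 positive and 29 negative interactions. Negative interactions fell to 1 with at least 5 events in 3 libraries and to 0 with splicing events alone. Same-numbered libraries did not deviate together (correlations of -0.00282, -0.00238 and -0.00444). These values cannot show whether same-numbered libraries shared a culture or batch, since libraries of unlike number gave values as near 0. With the replicate block 0 genes passed in either direction and there were 0 positive and 4 negative interactions. Counting a gene only with a splicing event gave 47 genes in NMN only, against 19 with any event counted. The count in LPS+NMN only is not given for this alternative, so its directions cannot be compared.

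Leaving out 1 library at a time lowers the number of libraries an entry must be in, and gave 39 to 65 genes in LPS+NMN only and 38 to 49 in NMN only, 233 to 420 and 222 to 401 first exons, 180 to 273 and 193 to 281 last exons, and 254 to 526 and 318 to 624 splicing events. Differences of totals changed sign, ranging from -52.7 to 41.8 genes, -776 to 1010 events, -0.0447 to 0.0686 events per gene and -456 to 607 splicing events. Limma called 0 to 0 genes, with 4 to 6 negative and 0 to 1 positive interactions. Of entries in all LPS and no Control libraries, in alternatives chosen after seeing the data, 24 to 29 genes were more often in LPS+NMN and 8 to 11 in NMN, 169 to 183 and 111 to 118 first and last exons, and 53 to 70 and 71 to 81 splicing events.

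Log2 differences of LPS+NMN minus NMN changed sign with first and last exons alone for Apol9b (-0.107), Brd1 (0.162), Brme1 (-0.138), Cep55 (0.107), Nop58 (-0.797), Oas1c (0.246) and Zfp771 (-0.277). The interaction of Apol9b was 0.528 with splicing events alone. Leaving out 1 library at a time gave values of either sign for Nop58 (-0.17 to 0.441), Oas1c (-0.542 to 0.008), Slc7a11 (-0.216 to 0.284) and Acsl4 (-0.175 to 0.082). The causes were not tested. Depth is unknown, so an entry missing from a catalogue does not show that the transcript was absent.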
